A study of Mus musculus with 54 samples.

Results

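Caveolins and cavins are the structural proteins of caveolae, the small flask-shaped pits of the plasma membrane. The 5 genes described here are Cav1, Cav2, Ptrf, Sdpr and Prkcdbp, and they were found by symbol among the 25149 genes of the deposited count and TPM tables. The tables use the older names of the cavins. Ptrf is now called Cavin1, Sdpr Cavin2 and Prkcdbp Cavin3. The genes were chosen by their measured differences between the media and the sides in these same libraries, so that their levels and differences are given below as a description, without tests.

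The libraries came from single follicle sides of CD-1 mice aged 14 to 16 days. Follicles were held in an alginate gel for 8 days of culture and then spent 12 h in maturation medium with serum, EGF and FSH. Only the post-hCG groups also received hCG, which acts on the receptor for luteinizing hormone and triggers ovulation. Each follicle was cut into the side that ruptures and the side that stays closed. The groups were the putative unruptured side (n = 15) and the putative ruptured side (n = 14) without hCG, and the unruptured side (n = 12) and the ruptured side (n = 13) post-hCG. The word putative marks that no rupture had taken place without hCG and that the sides were told by their shape. In the labels the tissue is the cumulus-oocyte complex, but by the methods of the study the complexes were taken out. In all groups the summed oocyte markers had a median of at most 0.13 TPM, and the highest library, on the putative unruptured side, had 153 TPM. The labels do not tie a library to a mouse or to the other side of its follicle, so p-values measure the spread between libraries. The column names read as plate wells, and the groups with and without hCG lie in separate rows of wells. Medium and plate row can therefore not be told apart. Within each medium the sides also lie in separate blocks of wells, the unruptured side before the ruptured side. The sides share only row C post-hCG and only row G without hCG. Side and well position can therefore not be told apart either.

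Each library held between 1497071 and 2834734 counts (median 2157092). Over all libraries Cav1 had 21 to 591 counts, Cav2 5 to 82, Ptrf 172 to 1336, Sdpr 0 to 18 and Prkcdbp 8 to 173.

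Caveolae form when caveolins, which insert into the inner leaflet as a hairpin, meet a coat of cavins at the membrane. Cav1 is the caveolin that most cells need to build caveolae, and Cav2 binds Cav1 and relies on it for its stability. Ptrf is the cavin without which caveolae are lost, while Sdpr and Prkcdbp join its coat and adjust the shape and traffic of caveolae. Caveolae buffer membrane stretch, host signalling receptors and take up lipids. Endothelial cells, adipocytes, smooth muscle cells and fibroblasts are known for many of them.

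Cav2 and Cav1 are neighbours on the plus strand of chromosome 6 in the GENCODE annotation of GRCm38, at chr6:17281185-17289115 and chr6:17306335-17341452, with 17219 bases between them. Ptrf lies at chr11:100956733-100970887 on the minus strand, Sdpr at chr1:51289126-51302960 on the plus strand and Prkcdbp at chr7:105480083-105482300 on the minus strand. Annotated antisense transcripts overlap Cav1, Cav2 and Sdpr, and another annotated gene overlaps Prkcdbp on the opposite strand. The counting is not stated to use strand, so reads of such partners cannot be told apart from those of the members.

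The promoter windows of the neighbouring caveolin genes, which were both higher post-hCG, and of Sdpr, which was almost without counts post-hCG, are shown for comparison. Each window is 300 bases of RefSeq sequence (GRCm38.p6), from 250 bases before the start of the transcript to 50 after it, on the plus strand. Capitals mark matches to the motifs searched. The windows are chr6:17306085-17306384 for Cav1, chr6:17280935-17281234 for Cav2 and chr1:51288876-51289175 for Sdpr.

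Cav1: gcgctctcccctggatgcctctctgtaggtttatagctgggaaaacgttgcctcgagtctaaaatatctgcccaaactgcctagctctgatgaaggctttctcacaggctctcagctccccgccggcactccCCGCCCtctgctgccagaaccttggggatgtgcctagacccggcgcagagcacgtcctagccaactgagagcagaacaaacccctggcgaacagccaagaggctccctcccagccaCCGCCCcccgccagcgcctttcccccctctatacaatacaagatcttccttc

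Cav2: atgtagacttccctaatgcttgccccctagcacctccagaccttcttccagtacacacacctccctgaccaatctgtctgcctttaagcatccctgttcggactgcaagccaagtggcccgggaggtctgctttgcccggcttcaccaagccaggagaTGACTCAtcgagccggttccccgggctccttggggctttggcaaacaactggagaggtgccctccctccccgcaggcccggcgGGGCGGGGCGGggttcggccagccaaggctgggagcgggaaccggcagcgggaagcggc

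Sdpr: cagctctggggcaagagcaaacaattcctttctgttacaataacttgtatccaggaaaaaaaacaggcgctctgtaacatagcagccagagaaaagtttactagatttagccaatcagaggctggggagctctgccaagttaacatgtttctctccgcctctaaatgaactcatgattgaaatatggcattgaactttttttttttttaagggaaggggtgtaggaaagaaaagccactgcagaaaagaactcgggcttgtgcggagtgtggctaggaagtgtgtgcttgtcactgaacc

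The motifs were TGACGTCA (the cAMP response element) and the shorter TGACG within it, TGANTCA (AP-1), CAAGGTCA (NR5A1), CATTCC (TEAD), CACGTG (E-box), GGGCGG (SP1/KLF) and the CArG box, on both strands. GGGCGG occurred at 2 positions of the Cav1 window shown, the first 118 bases before the start, and at 2 overlapping positions of the Cav2 window, the first 9 bases before it. The Cav2 window also held TGANTCA, 92 bases before the start. The Sdpr window held none of the motifs, and neither did the window of another annotated start of Cav1, at chr6:17307390-17307689. Of 32817 promoter windows of the same length, 35.6% held GGGCGG and 7.81% held TGANTCA. The cAMP response element was in 1.79% of all windows, its shorter form in 20.8%, CAAGGTCA in 1.56%, CATTCC in 14.7%, CACGTG in 7.15% and the CArG box in 1.63%. The bases of the Sdpr window were 43.3% G or C, against 59.3% and 64.3% for Cav1 and Cav2 and a median of 52.7% over all windows. Windows were found for 4 of the 5 genes. Of the windows not printed, that of Ptrf held CATTCC 247 bases and GGGCGG 7 bases before the start.

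Cav1 had the largest log2FC of hCG among the 4 members that passed the expression filter. On the putative unruptured side its level ran from 4.79 to 35.0 TPM with a median of 18.8, and on the unruptured side post-hCG from 46.6 to 91.5 TPM with a median of 69.8. On the putative ruptured side it lay between 2.98 and 19.2 TPM (median 8.54), and on the ruptured side post-hCG from 23.6 to 50.4 TPM (median 38.6). Every post-hCG library was thus above every library of the same side without hCG, 12 of 12 on the unruptured and 13 of 13 on the ruptured side. How many of all genes were separated in this way was not counted. With hCG edgeR called 53.1% and 60.1% of all genes tested on these sides, in both directions. In mean ± SD, Cav1 had 20.1 ± 8.59 TPM (n = 15) and 9.77 ± 4.92 TPM (n = 14) without hCG, and 68.2 ± 16.0 TPM (n = 12) and 39.0 ± 7.67 TPM (n = 13) post-hCG, in the order unruptured and ruptured. The log2FC of hCG, from counts, was 1.83 (SE 0.17) on the unruptured side and 2.40 (SE 0.24) on the ruptured side.

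Between the sides, Cav1 was lower on the ruptured one. The log2FC was −1.01 (SE 0.24) without hCG, where 13 of 14 ruptured libraries lay at or below the unruptured median and the ranges overlapped. Post-hCG all 13 ruptured libraries lay below the unruptured median and 9 of them below every unruptured library, yet the log2FC from counts was only −0.44 (SE 0.17). On log2(TPM + 1) the same difference was −0.78 (SE 0.13). The median over all genes was then itself −0.21, against 0.01 in the fit to counts, so relative to that median the 2 scales are closer than they look. How many of all genes had their ruptured libraries placed as low was not counted.

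**Figure D1:**
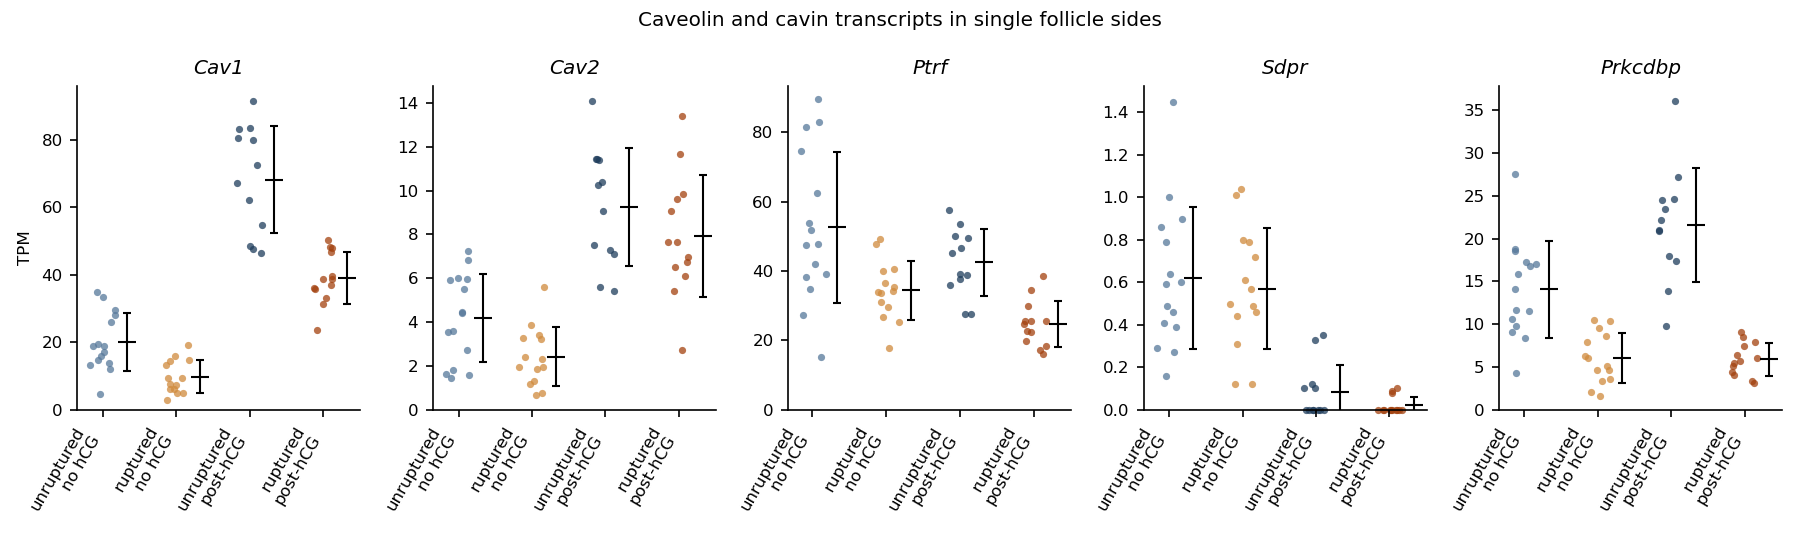
TPM of each caveolin and cavin gene (vertical axes, one scale per gene) in each library, by group; points are libraries and the black bars are the mean ± SD. For Cav1 the post-hCG points lie above all points of the same side without hCG, and for Sdpr most post-hCG points lie at 0.

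The plot of TPM by group shows the same arrangement for Cav2 at a lower level and with more overlap. Cav2 lay between 1.43 and 7.23 TPM (median 4.41) on the putative unruptured side and between 5.42 and 14.1 TPM (median 9.66) on the unruptured side post-hCG. On the ruptured side it lay between 0.68 and 5.59 TPM (median 2.13) without hCG and between 2.72 and 13.4 TPM (median 7.63) post-hCG. All 12 and all 13 post-hCG libraries were above the median of their side without hCG, and 9 and 11 of them were above all its libraries. How many of all genes were separated as far was not counted, and edgeR called 53.1% and 60.1% of all genes tested with hCG. The log2FC of hCG was 0.84 (SE 0.19) on the unruptured and 1.66 (SE 0.23) on the ruptured side.

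Without hCG, Cav2 was lower on the ruptured side, with a log2FC of −0.67 (SE 0.22). Post-hCG, its side difference had no settled direction. It was 0.14 (SE 0.21) from counts and −0.22 (SE 0.18) on log2(TPM + 1), where the median of all genes was −0.21.

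The authors' TPM and counts were not in a fixed proportion for the caveolins. Counts per TPM, which follow the transcript length that the authors' estimate used, had an SD over libraries of 0.30 for Cav1 and 0.44 for Cav2 on the log2 scale. The SD was 0.01 for Ptrf, 0.02 for Sdpr and 0.00 for Prkcdbp. The annotation lists 10 transcripts for Cav1 and 3 for Cav2, the coding ones of Cav2 between 694 and 2733 bases long. Ptrf has 1 coding transcript, and Sdpr and Prkcdbp have 1 transcript each. For Cav2 the mean of log2 counts per TPM was 2.75 ± 0.40 (n = 15) on the putative unruptured and 2.39 ± 0.40 (n = 12) on the unruptured side post-hCG. This difference of −0.36 had a permutation p of 0.0313 and did not pass after adjustment over the 8 tests made on Cav1 and Cav2 (0.25, the lowest of them). The 8 tests were on this ratio, not on levels, and were added after seeing the data. Whether different transcripts were present was not tested.

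Ptrf, the most abundant member without hCG, varied less between the groups than Cav1. It lay between 15.3 and 89.6 TPM (median 47.7) on the putative unruptured side and between 17.9 and 49.2 TPM (median 34.0) on the putative ruptured side. It lay between 27.7 and 57.6 TPM (median 42.1) post-hCG on the unruptured and between 16.1 and 38.5 TPM (median 24.8) on the ruptured side. The ranges overlapped in each comparison. Its log2FC was −0.58 (SE 0.18) between the sides without hCG and −0.51 (SE 0.13) post-hCG, where all 13 ruptured libraries were below the unruptured median. With hCG it was −0.37 (SE 0.19) on the unruptured and −0.28 (SE 0.12) on the ruptured side, so that Ptrf had the opposite sign to Cav1 and Cav2.

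Prkcdbp marked the side more than the medium. On the putative unruptured side it lay between 4.25 and 27.5 TPM (median 14.1), and on the putative ruptured side from 1.65 to 10.5 TPM (median 5.58). Post-hCG it lay between 9.80 and 36.1 TPM (median 21.6) on the unruptured side and between 3.14 and 9.06 TPM (median 5.70) on the ruptured side. Those post-hCG ranges did not overlap, and the median was 3.79-fold lower on the ruptured side. The share of all genes without overlap was not counted, and edgeR called 21.4% of all genes tested between these sides. From counts, the log2FC between the sides was −1.19 (SE 0.24) without hCG and −1.61 (SE 0.15) post-hCG. With hCG it was 0.54 (SE 0.19) on the unruptured side and 0.12 (SE 0.21) on the ruptured side. The last value lay within 1 SE of 0, and on log2(TPM + 1) it ran from −0.05 to 0.12 as single libraries were left out.

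Sdpr was close to the limit of detection, and differed in the presence of counts. It had 1 to 18 counts in every library without hCG. Post-hCG, 7 of 12 unruptured libraries and 10 of 13 ruptured libraries were listed at 0, and the others had at most 3 counts. Summed over libraries, the sides had 114 (unruptured) and 74 (ruptured) counts without hCG, against 9 and 3 post-hCG. As pooled CPM these were 3.31 (95% Poisson interval 2.73 to 3.98) and 3.00 (2.36 to 3.77) without hCG, and 0.353 (0.162 to 0.671) and 0.103 (0.0213 to 0.302) post-hCG. Relative to library totals, the rate was 9.37-fold lower post-hCG on the unruptured side (95% counting interval 4.77 to 21.0). On the ruptured side it was 29.1-fold lower (9.57 to 144). Such intervals cover counting error only. Sdpr did not pass the expression filter, and has no log2FC from the filtered counts. In scaled fits without that filter it was 8.12-fold (DESeq2) and 7.26-fold (edgeR) lower post-hCG on the unruptured side. On the ruptured side it was 18.2-fold and 15.4-fold lower. In TPM the ruptured libraries post-hCG, at most 0.10, were all below those without hCG, at least 0.12. The share of all genes separated in this way was not counted.

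**Figure D2:**
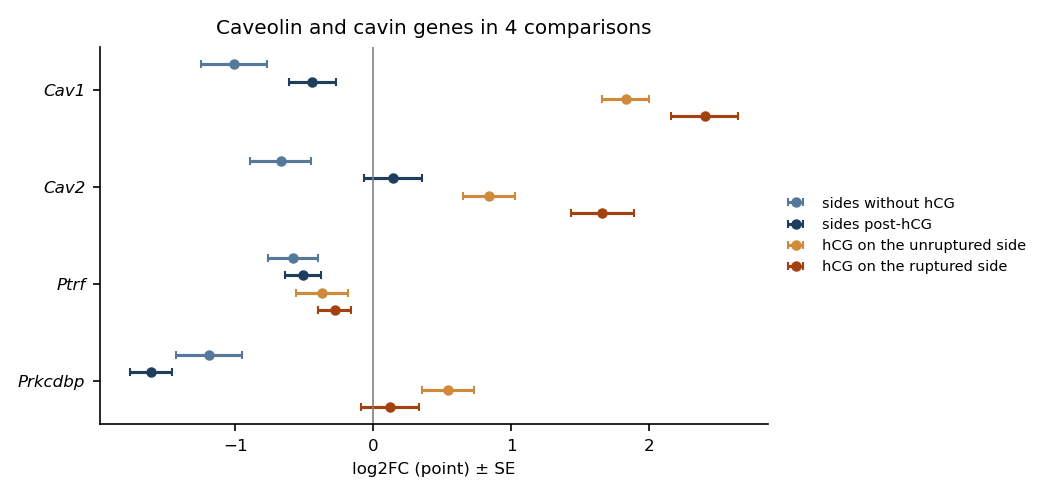
log2FC (horizontal axis, points) with its SE (bars) from counts for the 4 members that passed the expression filter, in the comparisons of sides and of media; positive means higher on the ruptured side or post-hCG. Cav1 and Cav2 lie right of 0 with hCG, Ptrf left of 0 in all 4 comparisons and Prkcdbp furthest left between the sides post-hCG.

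Between the sides without hCG the log2FC of the 4 members in the fit was below 0, from −0.58 to −1.19. With hCG both caveolins were above 0 on either side, Ptrf was below it, and Prkcdbp was above 0 on the unruptured side. Over all genes, which serve as the background of the lists below, edgeR called 17.8% of 9063 genes between the sides without hCG at an FDR of 0.05 (8.84% higher, 8.96% lower). It called 21.4% of 8585 between the sides post-hCG (10% higher, 11.3% lower). With hCG it called 53.1% of 9320 (25.4% higher, 27.7% lower) on the unruptured and 60.1% of 8531 (29.7% higher, 30.4% lower) on the ruptured side. Comparisons that share a group of libraries are not independent of each other.

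The interaction of side and medium is the side difference post-hCG minus that without hCG. From counts it was 0.58 (SE 0.30) for Cav1, 0.83 (SE 0.31) for Cav2, 0.08 (SE 0.23) for Ptrf and −0.41 (SE 0.30) for Prkcdbp. On log2(TPM + 1) it was 0.20 (SE 0.28), 0.37 (SE 0.28), −0.25 (SE 0.24) and −0.57 (SE 0.29) in the same order. The median of all genes was −0.19 on that scale and −0.01 from counts. In edgeR 8.91% of 10013 genes tested passed (4.25% higher, 4.65% lower).

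The order of the members by TPM, a measure per transcript length, differed between the media. Without hCG Ptrf was first and was above Cav1 in all 15 putative unruptured and all 14 putative ruptured libraries. Cav1 and Prkcdbp, next in order, did not differ beyond their spread, as Cav1 was above Prkcdbp in 8 of 15 and 11 of 14 libraries. Cav2 and then Sdpr followed. Post-hCG Cav1 was above Ptrf in 11 of 12 unruptured and 12 of 13 ruptured libraries. Prkcdbp followed them on the unruptured side post-hCG and was above Cav2 in 11 of 12 libraries. On the ruptured side it changed places with Cav2, which was above Prkcdbp in 8 of 13 libraries, a pair that overlapped.

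**Figure D3:**
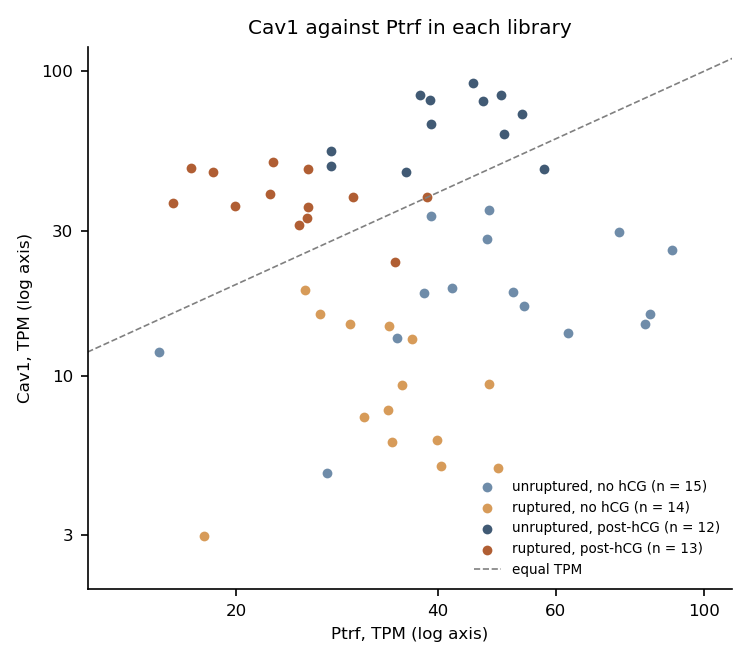
TPM of Cav1 (vertical log axis) against TPM of Ptrf (horizontal log axis) in each of the 54 libraries, coloured by group, with a dashed line of equal TPM. All libraries without hCG lie under the line, and 11 of 12 unruptured and 12 of 13 ruptured libraries post-hCG lie above it.

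The plot of Cav1 against Ptrf shows this exchange library by library. The ratio of Cav1 to Ptrf in TPM without hCG had a median of 0.383 among unruptured libraries (0.176 to 0.856) and of 0.234 among ruptured ones (0.101 to 0.756). Post-hCG the medians were 1.72 (0.829 to 2.22) and 1.76 (0.685 to 2.81). As a share of the TPM of the 5 members, Cav1 had a median of 21.7% and 16.0% without hCG and of 50.7% and 49.1% post-hCG, unruptured side first. The share of Ptrf had medians of 57.9% and 67.0% without hCG and 29.7% and 30.1% post-hCG. The shares of Cav1 and Ptrf were thus close to each other on the post-hCG sides, although the summed TPM of the members was 147 on the unruptured and 77.3 on the ruptured side. Those of the others were less alike. Post-hCG the share of Prkcdbp had medians of 14.5% and 7.94% and that of Cav2 6.39% and 10.5%, unruptured side first. The caveolins together had a TPM of 0.359 and 0.251 of that of the cavins without hCG, and of 1.33 and 1.85 post-hCG, in medians.

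Among all genes with a TPM above 0, Cav1 without hCG ranked above 90.7% in unruptured and 82.9% in ruptured libraries by mean TPM. Post-hCG it ranked above 96.0% and 94.5%. Ptrf stayed above 92.1% or more in each group.

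Libraries of one group differed from each other in ways that the members shared in part. After the group means were subtracted from log2(TPM + 1), the 54 libraries gave a Pearson r of 0.57 for Ptrf and Prkcdbp and of 0.39 for Cav1 and Cav2. It was 0.32 for Cav1 and Prkcdbp, 0.17 for Cav1 and Ptrf, and −0.14 for Cav2 with Ptrf and with Prkcdbp. The values describe genes that share libraries and depth and carry no test. For Ptrf and Prkcdbp the r was 0.88 among the 15 putative unruptured libraries and 0.23 among the 14 putative ruptured ones, and post-hCG 0.59 and 0.39.

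Of 9884 other genes, those most like Cav1 after the subtraction were Arl6ip5 (r = 0.62), Cd9 (r = 0.56) and Cd63 (r = 0.53), of which the last 2 encode tetraspanins of the cell membrane and of endosomes. Without the subtraction, which leaves the group differences in, they were Arl6ip5 and Tinagl1 (both r = 0.90) and Steap2, Hmga1 and H1f0 (all r = 0.87). The genes most like Ptrf were Kdelr2, a receptor that returns proteins to the endoplasmic reticulum (r = 0.81), Dpysl2 (r = 0.79) and Ptp4a2 (r = 0.78). Those most like Prkcdbp were Col5a1, a fibrillar collagen chain (r = 0.76), Ifitm3 (r = 0.75) and Tubb6 (r = 0.74). Cav2 had no gene above the r of 0.45 for Rpp30, followed by Pin4 (r = 0.40) and Heca (r = 0.39). Sdpr was most like Wnt2 (r = 0.56), Mlf1 (r = 0.54) and Pik3r1 (r = 0.51), at levels near 0.

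The RNA of theca and stroma markers differed between the sides, and without hCG so did that of granulosa markers. Fewer cells of a type and less RNA per cell cannot be told apart in bulk samples. The summed TPM of 12 theca and stroma markers without hCG had a median of 539 among unruptured libraries (37.5 to 2795) and of 43.1 among ruptured ones (6.85 to 577). Post-hCG the medians were 351 (77.6 to 1338) and 7.51 (3.84 to 55.4), and in the ruptured libraries 6 of the 12 markers, Cyp17a1, Insl3, Lum, Pdgfra, Gli1 and Tcf21, had a median of 0. The largest part of the sum was Col3a1, a collagen chain. Its medians were 381 and 17.0 TPM without hCG and 247 and 3.67 TPM post-hCG, unruptured side first. In edgeR 7 of 9 tested theca and stroma markers were lower on the putative ruptured side and 5 of 6 on the ruptured side post-hCG, and none was higher. Of all genes 8.96% and 11.3% were lower in these comparisons. The markers therefore moved with the side, as Prkcdbp did. With hCG 6 of 9 theca and stroma markers were lower on the unruptured and 3 of 4 on the ruptured side, and none was higher, where 27.7% and 30.4% of all genes were lower. Prkcdbp went the other way with hCG on the unruptured side, with its log2FC of 0.54 (SE 0.19).

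Prkcdbp followed the sum of the theca and stroma markers, of which Col3a1 was the largest part, also within groups. Its r with the log2 of their sum was 0.74 after the group means were subtracted, and in the single groups 0.90 (n = 15) and 0.73 (n = 14) without hCG and 0.72 (n = 12) and 0.57 (n = 13) post-hCG. For Ptrf the r with this sum without hCG was 0.88 on the unruptured and −0.17 on the ruptured side. Post-hCG it was 0.56 and 0.07. For Cav1, Ptrf and Cav2 the r after subtraction was 0.30, 0.33 and −0.11. Cav1 had a larger r of the opposite sign with granulosa markers, −0.36 after subtraction, and −0.84 (n = 14) and −0.64 (n = 13) among the ruptured libraries without hCG and post-hCG, against −0.06 (n = 15) and 0.19 (n = 12) among the unruptured ones. Most of the granulosa sum was Inha and Gja1. For Prkcdbp the r with granulosa markers was −0.57, and with smooth muscle and surface epithelium markers 0.59 and 0.48. Ptrf had 0.39 and 0.44 with the same markers and −0.31 with granulosa markers. The part of the theca and stroma cells in the side difference of Prkcdbp was not tested. Nor was their part in the differences of Cav1. On the ruptured side post-hCG, with theca and stroma markers at 3.84 to 55.4 TPM, Cav1 was at 23.6 to 50.4 TPM, against 4.79 to 35.0 TPM on the putative unruptured side, with markers at 37.5 to 2795 TPM.

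**Figure D4:**
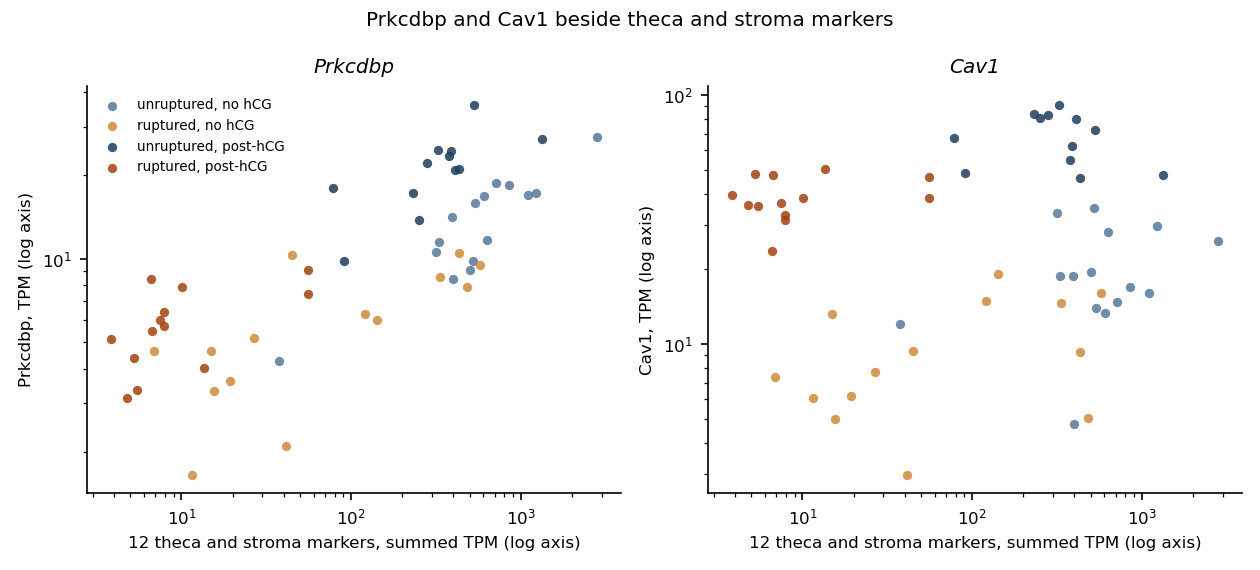
TPM of Prkcdbp (left) and Cav1 (right) on vertical log axes against the summed TPM of 12 theca and stroma markers (horizontal log axes), one point a library, coloured by group. Col3a1 is the largest part of the sum. Prkcdbp is higher in libraries with more marker RNA, and Cav1 on the ruptured side post-hCG lies at 23.6 TPM or more with markers at 3.84 to 55.4 TPM.

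The plot beside theca and stroma markers shows both genes. Endothelial cells, which are rich in Cav1, were sought with 10 markers. Without hCG their summed TPM had a median of 9.83 in unruptured and 4.14 in ruptured libraries (ranges 2.47 to 22.3 and 1.81 to 16.6), and of 19.2 and 12.2 post-hCG (5.83 to 37.5 and 4.82 to 25.2). Tek and Emcn had a median of 0 in 3 of the 4 groups, and 7 to 9 of the 10 markers had a median under 1 TPM in each group. Cdh5, a junction protein of endothelial cells, was higher with hCG on the unruptured side by a log2FC of 1.40 (SE 0.33, edgeR FDR = 0.000604). It was the one endothelial marker that passed the expression filter there, and none did for hCG on the ruptured side. Most of the rise in the sum was in Cldn5, a tight junction protein, with a mean of 0.444 and 0.401 TPM without hCG and 8.44 and 7.61 TPM post-hCG. The medians of Tek, Emcn and Esam on the unruptured side were 0.06, 0.21 and 0.86 TPM without hCG and 0, 0 and 0.28 TPM post-hCG. The summed markers, but not each of them, were thus higher post-hCG, as Cav1 was, and their part in its difference was not tested. Within groups the r of Cav1 with their sum was −0.01.

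The 8 smooth muscle markers summed to medians of 38.9 and 7.37 TPM without hCG and 14.5 and 11.7 TPM post-hCG. Myh11, Cnn1 and Lmod1, which define contractile smooth muscle, had a median of 0 in all 4 groups. Acta2, the smooth muscle actin, had medians of 29.1 and 3.53 TPM without hCG, and the log2FC between those sides was −1.53 (SE 0.48, edgeR FDR = 0.023). With hCG on the unruptured side it fell by −2.81 (SE 0.39, edgeR FDR = 3.22e-07). Smtn, which binds actin, was higher with hCG by 2.03 (SE 0.18, edgeR FDR = 3.75e-11) and 2.33 (SE 0.19, FDR = 1.77e-12). Immune markers had summed medians of 33.4, 3.02, 13.5 and 0.75 TPM in the same order, and Ptprc, which all leukocytes carry, had a median of 0 in each group. On the unruptured sides most of the immune sum was Lyz2, a lysozyme of macrophages. It had medians of 29.7 and 0 TPM without hCG (unruptured first) and a log2FC between those sides of −2.87 (SE 0.70, edgeR FDR = 0.00397). Granulosa markers summed to medians of 4060 and 13072 TPM without hCG and 1553 and 1284 TPM post-hCG. Most of this sum was Inha (medians of 2594, 9027, 1333 and 1051 TPM in that order) and Gja1 (1429, 3603, 154 and 134 TPM). Between the sides 6 of 8 tested granulosa markers were higher on the putative ruptured side and 1 of 4 on the ruptured side post-hCG. None was lower in these comparisons, where 8.84% and 10% of all genes were higher. With hCG 6 of 8 tested granulosa markers were lower and 2 higher (Fshr and Nr5a2) on the unruptured side. On the ruptured side 5 of 7 were lower and 1 higher (Nr5a2). Of all genes 27.7% and 30.4% were lower, and 25.4% and 29.7% higher. Cumulus expansion markers summed to 7.92, 9.66, 26.8 and 24.0 TPM and surface epithelium markers to 7.96, 7.73, 4.85 and 3.37 TPM, again in medians.

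The proteins that shape, pinch off or hold caveolae were followed with a list of 14 accessory genes, of which 8 passed the expression filter. Cav3 and Murc, the caveolin and the cavin of muscle, summed to at most 43 and 1 counts in a group. Ehd3, Pacsin1, Dnm1 and Ror1 had medians between 0 and 1.27 TPM. Pacsin1, below the filter, had 10 and 5 counts in all without hCG on the unruptured and the ruptured side, and 72 and 74 post-hCG. The list was chosen with results of these data known. Between the sides without hCG 4 of 8 genes passed the test (1 higher, 3 lower) and post-hCG 1 of 8, lower, against the 17.8% and 21.4% of all genes. With hCG 4 of 8 on the unruptured side (3 higher, 1 lower) and 5 of 8 on the ruptured side (4 higher, 1 lower) passed, against 53.1% and 60.1%. The median log2FC of the 8 genes was −0.19, −0.04, 0.22 and 0.13 in these comparisons, and that of all genes −0.01, 0.01, −0.03 and −0.00.

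Ehd2, an ATPase that sits at the neck of caveolae and keeps them at the membrane, had the largest log2FC of the 8 accessory genes tested in each comparison of sides or media. It lay between 14.1 and 50.7 TPM (median 29.3) on the putative unruptured and between 2.95 and 22.7 TPM (median 10) on the putative ruptured side. It lay between 3.96 and 26.3 TPM (median 8.97) post-hCG on the unruptured and between 0.86 and 23.6 TPM (median 1.91) on the ruptured side. In counts, which for Ehd2 are not in a fixed proportion to TPM (SD of 0.72 on the log2 scale), every putative unruptured library had at least 182 and every ruptured library post-hCG at most 55.4. In edgeR it fell on the ruptured side by a log2FC of −1.14 (SE 0.17, FDR = 1.54e-05) without hCG and −1.75 (SE 0.20, FDR = 1.76e-07) post-hCG. With hCG it fell by −1.04 (SE 0.19, FDR = 3.33e-05) on the unruptured and −1.63 (SE 0.18, FDR = 1.28e-09) on the ruptured side. Ehd2 and Cav1 thus had the same sign between the sides and opposite signs with hCG. Its interaction of −0.60 (SE 0.27) did not pass in edgeR (FDR = 0.151).

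Pacsin2, which bends the membrane of caveolae through its F-BAR domain, was higher post-hCG. On the unruptured side its median was 15.1 TPM without hCG (6.42 to 25.7) and 21.1 TPM post-hCG (15.3 to 40.6). On the ruptured side it was 12.3 TPM (8.67 to 18.1) and 20.8 TPM (12.8 to 39.2). The ranges overlapped on both sides. The log2FC of hCG in edgeR was 0.63 (SE 0.10, FDR = 2.29e-06) on the unruptured and 0.95 (SE 0.10, FDR = 3.48e-10) on the ruptured side. Without hCG it was lower on the putative ruptured side by −0.32 (SE 0.10, FDR = 0.0231), and post-hCG the difference was −0.00 (SE 0.09).

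**Figure D5:**
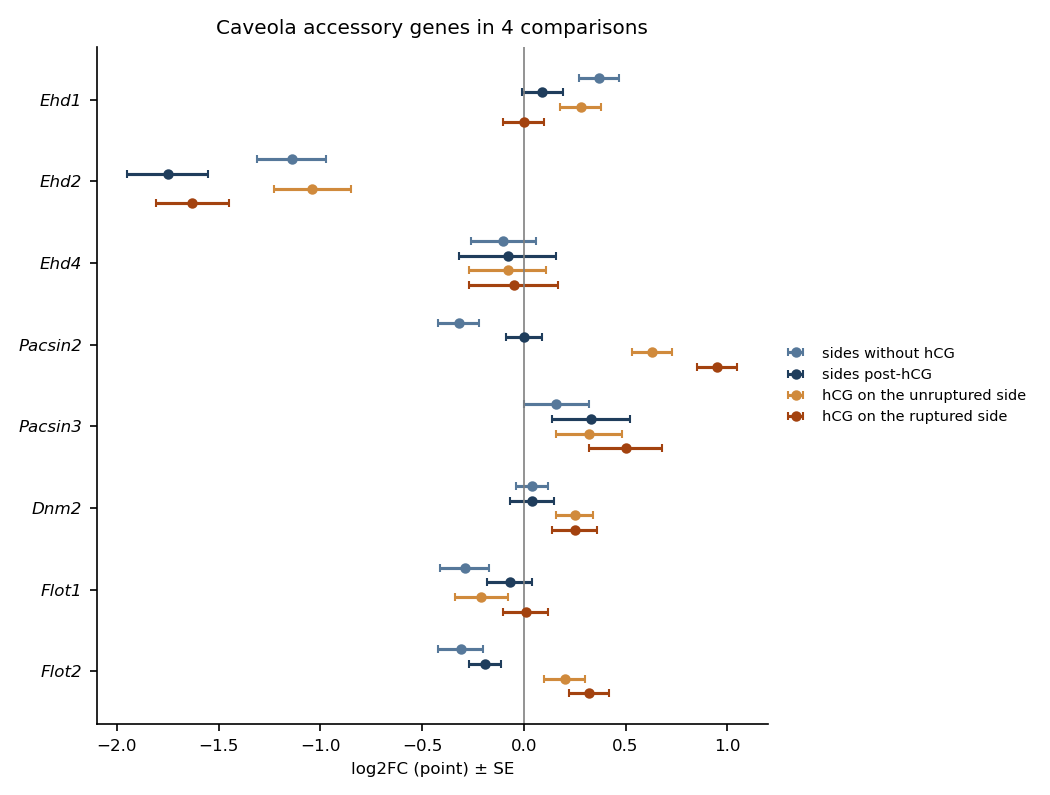
log2FC (horizontal axis, points) with its SE (bars) from counts for the 8 accessory genes that passed the expression filter, in the comparisons of sides and of media. Ehd2 lies between −1.04 and −1.75 in all 4 comparisons, and the other genes between −0.32 and 0.95.

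The remaining accessory genes differed by less. Ehd1, a relative of Ehd2 in recycling endosomes, was higher on the putative ruptured side by a log2FC of 0.37 (SE 0.10, edgeR FDR = 0.00845) and with hCG on the unruptured side by 0.28 (SE 0.10, FDR = 0.0219). Dnm2, the dynamin that cuts vesicles off the membrane, was higher with hCG by 0.25 on both sides (SE 0.09 and 0.11, edgeR FDR = 0.0208 and 0.041). Pacsin3 was higher with hCG on the ruptured side by 0.50 (SE 0.18, edgeR FDR = 0.0212). Flot2, a flotillin of membrane domains that lack caveolin, was lower on the putative ruptured side by −0.31 (SE 0.11, edgeR FDR = 0.047) and higher with hCG on the ruptured side by 0.32 (SE 0.10, FDR = 0.0068). For Ehd4 and Flot1 no comparison passed, with log2FC from −0.29 to 0.01. In the interaction 0 of 8 genes passed in edgeR and 0 of 14 in DESeq2, with 2 at an unadjusted p under 0.05 in each, against 8.91% of all genes.

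Receptors and channels that are described in caveolae or bind caveolin formed a list of 24 genes. Between the sides 7 of 18 tested without hCG (3 higher, 4 lower) and 6 of 16 post-hCG (1 higher, 5 lower) passed, or 38.9% and 37.5% against 17.8% and 21.4% of all genes. With hCG 12 of 18 passed on the unruptured side (4 higher, 8 lower) and 10 of 15 on the ruptured side (4 higher, 6 lower), or 66.7% each against 53.1% and 60.1%. The median log2FC was −0.23, −0.00, −0.51 and −0.26 in the same order.

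Scarb1, the receptor that takes up cholesterol esters from HDL for steroid synthesis, was higher with hCG on both sides, as was Cav1. Its TPM had medians of 125 and 112 without hCG and of 580 and 480 post-hCG, and its log2FC in edgeR was 2.04 (SE 0.26, FDR = 5.28e-08) on the unruptured and 2.22 (SE 0.17, FDR = 3.93e-13) on the ruptured side. Cd36, a scavenger receptor for fatty acids, was lower with hCG by a log2FC of −2.45 (SE 0.39, edgeR FDR = 3.7e-06) and −3.47 (SE 0.32, FDR = 4.15e-11). It was higher on the putative ruptured side without hCG by 1.77 (SE 0.29, edgeR FDR = 5.46e-05), where its TPM lay between 1.49 and 14.9. The TGF-beta and BMP receptors went apart with hCG. Tgfbr1 was higher by 1.28 (SE 0.12, edgeR FDR = 1.54e-10) and 0.84 (SE 0.15, FDR = 1.55e-05), and Bmpr2 was lower by −1.62 (SE 0.17, edgeR FDR = 1.45e-09) and −2.11 (SE 0.15, FDR = 4.97e-14).

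Ednra, an endothelin receptor, was lower with hCG by −1.57 (SE 0.22, edgeR FDR = 3.5e-07) and −2.40 (SE 0.20, FDR = 3.43e-12). Insr, the insulin receptor, was higher on the putative ruptured side by 0.54 (SE 0.14, edgeR FDR = 0.00601). Pdgfra, Pdgfrb and Tgfbr2 were lower on the ruptured side post-hCG by −3.93, −2.33 and −1.15 (edgeR FDR = 1.26e-06, 1.67e-05 and 6.86e-06). Pdgfra is also one of the theca and stroma markers. It had 30 counts in all ruptured libraries post-hCG together and was listed at 0 in 8 of 13, against 466 counts on the unruptured side.

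Clathrin-mediated uptake, which forms vesicles of another kind, was described with 26 genes, of which 22 were tested. Between the sides 4 of 22 without hCG (3 higher, 1 lower) and 6 of 22 post-hCG (1 higher, 5 lower) passed, or 18.2% and 27.3%, against 17.8% and 21.4% of all genes. With hCG 15 of 22 passed on each side, or 68.2% against 53.1% and 60.1% of all genes, with 10 higher and 5 lower on the unruptured and 8 higher and 7 lower on the ruptured side. The median log2FC with hCG was 0.19 and 0.16. Cltb, one of the clathrin light chains, was higher with hCG by a log2FC of 1.62 (SE 0.17, edgeR FDR = 1.33e-09) and 2.28 (SE 0.17, FDR = 1.97e-13). The adaptors Dab2 and Epn2 were lower, Dab2 by −1.49 (SE 0.19, edgeR FDR = 9.2e-08) and −3.21 (SE 0.20, FDR = 4.08e-15) and Epn2 by −1.60 (SE 0.13, edgeR FDR = 5.58e-12) and −2.33 (SE 0.15, FDR = 4.85e-15), unruptured side first. Whether either list differed from the other was not tested.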

How the data were processed

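Single follicle sides were sequenced as Smart-Seq2 cDNA in Nextera XT libraries. The authors aligned reads to GRCm38 with HISAT2 and deposited estimated counts and TPM values. The counting program and annotation are not given in the sources used here, nor is whether the deposited tables precede the batch correction with ComBat-seq that the authors describe. Of the non-zero counts 72.2% were whole, and the others were rounded. Per library, the deposited TPM added up to 585982 to 678417. No column was left unmatched.

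Genes were kept by filterByExpr (at least 10 counts in enough libraries, 15 in total). After TMM scaling the quasi-likelihood F-test of edgeR 4.0.16 (R 4.3.3) was run, two-sided, with a Benjamini-Hochberg FDR of 0.05 over all genes tested, each comparison on its own groups and the interaction on all 4. The scripts were tested on simulated data. Sums, levels, Pearson r on log2(TPM + 1) and permutation tests with 100000 resamples used Python 3.11.15, numpy 2.4.6, scipy 1.17.1 and pandas 2.3.3. Counts per TPM were scaled per library over 3759 genes with at least 20 counts and 1 TPM in every library. No 2 libraries of a group repeated each other within sampling noise.

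The 5 genes and all lists were chosen with earlier results of these data known. The text names the 5 genes, all 14 accessory genes, from the other lists at most 3 genes a direction and comparison with the largest log2FC past the FDR and a mean of at least 1 TPM, and for each member the 3 genes with the highest r (for Cav1 also 5 without subtraction of group means). Cdh5 and single markers are named beside them. The values of 1 gene of the lists, which is kept in their counts, are not reported here. Alternatives were DESeq2 1.42.0, library totals alone, RLE size factors, an unfiltered fit, a mean of at least 20 counts, thinning to the smallest library, limma 3.58.1 on log2(TPM + 1), the replicate number as a block, all 4 groups in one fit, a pseudocount of 0.1, log2 CPM, Spearman's rho and leaving out single libraries. Counts per TPM were added after seeing the data. Labels give no batches. The authors' single-cell data and images were not analysed here.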

Additional observations from a re-analysis of the deposited data

Results flagged for a closer look

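In edgeR's test of the interaction, 6 genes of the caveola and clathrin lists had a side difference that differed between the media past an FDR of 0.05. These were 0 of 8 accessory genes tested, 3 of 18 in the list of receptors and channels (16.7%) and 3 of 22 clathrin genes (13.6%). Of all 10013 genes tested 8.91% passed. Dab2 had the lowest FDR, with an interaction of −1.72 (SE 0.28, edgeR FDR = 5.38e-05). Its side difference was 1.31 without hCG and −0.42 post-hCG. Epn2, with −0.73 (SE 0.20, edgeR FDR = 0.0126), went from 0.66 to −0.08, and Picalm, with −0.53 (SE 0.18, edgeR FDR = 0.0463), from 0.65 to 0.12. All of these are clathrin adaptors. Gnas, the stimulatory G protein subunit, had an interaction of 0.92 (SE 0.23, edgeR FDR = 0.00753), from −0.57 to 0.34. Pdgfra had −2.27 (SE 0.74, edgeR FDR = 0.0417), from −1.65 to −3.93, and was listed at 0 in 8 of 13 ruptured libraries post-hCG.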

How the results depend on the processing

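Of 176 log2FC values of members under other settings, 175 stayed within 1 SD between replicates of the reported ones. That SD is wider than the SE of a log2FC, so values near 0 could change sign within it. Cav2 between the sides post-hCG went from 0.14 to −0.22 with limma. Prkcdbp with hCG on the ruptured side went from 0.12 to −0.20 with library totals only. Scaling by library totals moved the log2FC of Ptrf with hCG on the ruptured side from −0.28 to −0.61, and the median of all genes there from −0.00 to −0.33. Of 176 counts of called genes 166 stayed within 1.5 times. With limma on log2(TPM + 1) the sides without hCG gave 1054 genes called in place of 1613 and 1 accessory gene in place of 4. The sides post-hCG gave 3 accessory genes in place of 1 with limma, with DESeq2 and with no filter, and 2 with library totals only. With limma, hCG gave 9 clathrin genes in place of 15 on the unruptured side and 2 accessory genes in place of 5 on the ruptured side. The differences of Sdpr in log2(TPM + 1) became larger with a pseudocount of 0.1, at −0.40 and −2.09 and −2.38 for the sides post-hCG and for hCG on either side (unruptured first), and −0.29 for the interaction. The r of Cav1 and Cav2 was 0.62 on log2 CPM in place of 0.39, that of Cav2 with Ptrf 0.13 and with Prkcdbp 0.04 in place of −0.14, and Spearman's rho of Cav1 and Ptrf was −0.02. The cause of these shifts was not tested. Depth limits Sdpr, with 18 counts or fewer in each library.

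The labels number the libraries of each group, but same-numbered libraries did not deviate together (median r between −0.07 and 0.04 over the comparisons, at most 3 pairs over 0.1), so the numbers were not taken as pairs. With the replicate number as a block, accessory genes called were 2 in place of 4 with hCG on the unruptured and 3 in place of 5 on the ruptured side. All other counts stayed within 1.5 times.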
